A study of Mus musculus with 4 samples.

Results

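The 3 SoxF genes, Sox7, Sox17 and Sox18, were followed through the cell types of the embryonic mouse aorta region. They are 3 of the 32285 genes counted in the study and were chosen by symbol, with no measured value in the rule. The cells came from the AGM (aorta, gonads and mesonephros), the tissue around the dorsal aorta in which blood stem cells first form, of C57BL/6J mouse embryos at stage E11.5. Cells carrying CD31 (Pecam1), a surface protein of endothelium and of many early blood cells, were sorted by TMRM, a dye that is taken up according to mitochondrial membrane potential. Cells with low dye uptake (MMPlow, 2 libraries) and with high uptake (MMPhigh, 2 libraries) were profiled by droplet single-cell RNA sequencing of transcript 3′ ends, with no other treatment named in the labels. How many embryos went into each library is not given in the sources used here, so p-values measure only the spread between these libraries.

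SoxF proteins are transcription factors with an HMG box, a DNA-binding domain that reads a short AT-rich site. In the embryo they are known chiefly from endothelium. Sox17 is known for arterial identity and for haemogenic endothelium, the endothelial cells that turn into blood. Sox18 is known for switching on Prox1 at the start of lymphatic development, and Sox7 shares part of the vascular work of both. Runx1 is the transcription factor required for the change from endothelium to blood, and SoxF activity is known to go down as that change proceeds.

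On the GRCm38 assembly, in the GENCODE vM21 annotation, Sox7 (ENSMUSG00000063060) lies on chromosome 14 at positions 63943673 to 63950732, on the forward strand. Sox17 (ENSMUSG00000025902) lies on chromosome 1 at 4490931 to 4497354, on the reverse strand. Sox18 (ENSMUSG00000046470) lies on chromosome 2 at 181669836 to 181671640, on the reverse strand. Sox17 is overlapped by Gm37587, a noncoding gene on the opposite strand, and whether the counting used strand is not given in the sources used here. Gm37587 itself held 58, 63, 1 and 1 UMIs (unique molecular identifiers, 1 per captured transcript) in the filtered cells of MMPlow 1, MMPlow 2, MMPhigh 1 and MMPhigh 2 before doublets were removed, beside 2401, 3824, 60 and 45 UMIs of Sox17.

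The files held 51800709 to 120168395 UMIs a library, and 43102 cells remained after filtering, 3418 to 18583 a library. MMPhigh 2 stood apart in depth, with a median of 23668.5 UMIs per cell beside 3145 to 3685 in the other 3 libraries. The cells fell into 30 clusters, 7 of which took the endothelial name and 9 of which took no name. Endothelial-like cells numbered 7670 in MMPlow 1 and 8724 in MMPlow 2, but 17 in MMPhigh 1 and 15 in MMPhigh 2, so comparisons among cell types rest on the MMPlow pair. Although the sort was for CD31, Pecam1 stood at 459 ± 6.65 UMIs per 1000000 (CPM; mean ± SD of the MMPlow libraries, n = 2) in endothelial-like cells and at 72.8 ± 24.4 CPM in mesenchymal-like cells. At most 87 cell barcodes were shared by any pair of libraries, 17 of them in endothelial-like cells.

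All 3 SoxF genes had their highest mean level in the endothelial-like cells. Sox7 stood at 49.3 and 51.3 CPM in the endothelial-like cells of MMPlow 1 and MMPlow 2 (mean 50.3 ± 1.42, SD, n = 2), Sox17 at 61.8 and 74.3 CPM (68.1 ± 8.85) and Sox18 at 25.3 and 25.5 CPM (25.4 ± 0.109). For Sox7 and Sox17, no other class or unnamed cluster of the 21 compared reached the range of the endothelial-like cells. For Sox18 only the germ cell-like cells did, at 13.4 and 26.9 CPM, on 5 UMIs in 60 cells over the MMPlow pair. Endothelial-like cells were 45.9% and 46.9% of the MMPlow cells and held 76.1% of the Sox7 UMIs of MMPlow 1 (1464 of 1924) and 81.5% of those of MMPlow 2 (1986 of 2436). Their part of the Sox17 UMIs was 76.5% and 81.4%, and of the Sox18 UMIs 73.6% and 78.1%.

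Outside endothelium the MMPlow libraries held a low level of all 3 genes in nearly every cell type. Mesenchymal-like cells, a class not known for SoxF genes, had 9.002 and 8.70 CPM of Sox7, 12.7 and 10.1 CPM of Sox17, and 6.25 and 3.48 CPM of Sox18. As a share of the endothelial-like level of the same library, averaged over the pair, that was 17.6% for Sox7, 17.0% for Sox17 and 19.2% for Sox18. Cdh5, the VE-cadherin gene of endothelial junctions, stood at 17.9% in the same cells. The genes thus kept about the same ratio to each other as in endothelium, and a level of this size is called the background here. Thinned to 2000 UMIs a cell, Sox7 and Sox17 met in 2 and 3 mesenchymal-like cells, 5.59 and 4.44 times the product of their separate shares. Both ratios rest on these few cells, and Sox18 met Sox7 or Sox17 in 0 mesenchymal-like cells of either library. Whether the SoxF UMIs of this class came from free RNA, from endothelial cells sharing a droplet or from the mesenchymal-like cells themselves was not tested. In MMPhigh the mesenchymal-like cells had at most 0.628 CPM of any of the 3 genes.

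The haematopoietic progenitor-like cells of MMPlow (603 and 715 cells) were named from Kit, Myb, Hlf and other markers (mean log2 fold 2.06). Granulocyte or mast markers came second (1.44), and Cpa3 and Hdc were among the leading genes. SoxF levels in these cells were of about the size of that background. Sox7 stood there at 11.7 and 5.58 CPM, Sox17 at 10.7 and 9.42 CPM, and Sox18 at 4.79 and 4.19 CPM. Each of these ranges overlapped that of the mesenchymal-like cells. Relative to endothelium the progenitor-like means were 17.3% for Sox7, 14.95% for Sox17 and 17.7% for Sox18, beside 16.5% for Cdh5, whereas Pecam1, which early blood cells do carry, stood at 43.7%. Progenitor-like cells with a Cdh5 UMI (121 and 158 cells) had 10.4 and 5.89 CPM of Sox17, against 10.7 and 10.5 CPM in those without one. The first pair rests on 4 UMIs in each library and gives no order: at 5000 UMIs a cell the direction was the opposite, with a Sox17 UMI in 14.3% of 7 cells and 5.88% of 34 cells with Cdh5 and in 0 of the 29 and 90 cells without. In MMPhigh the 25 progenitor-like cells of library 2 held 0 UMIs of all 3 genes, which allows a level of up to 3.67 CPM, and the 4 cells of library 1 also held 0, which allows up to 57.3 CPM.

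**Figure D1:**
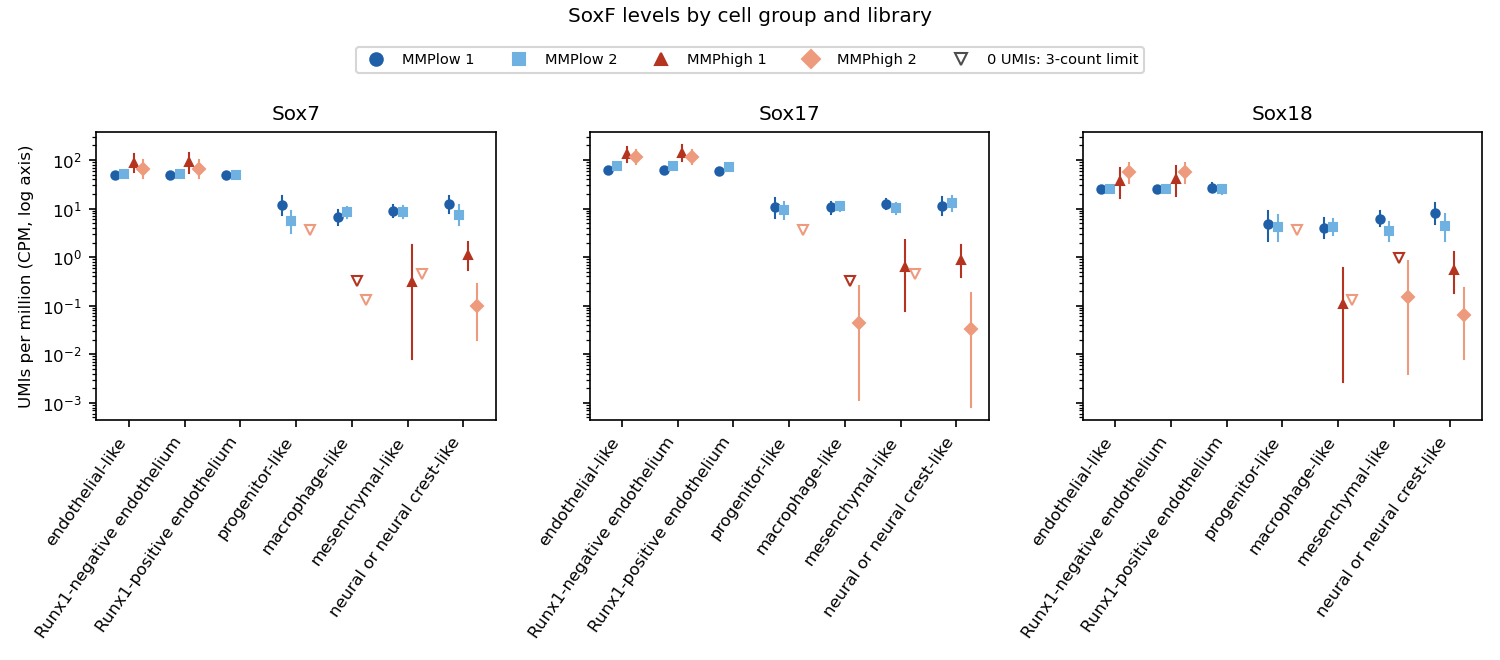
Level of each SoxF gene in UMIs per 1000000 (CPM, log axis) by cell group and library, with exact 95% Poisson intervals of the UMI sums (counting error only); open triangles mark 0 UMIs at the level that 3 counts would give. The endothelial-like cells lie between 25.3 and 133 CPM in all 4 libraries, whereas the 4 non-endothelial groups drawn lie between 3.48 and 13.0 CPM in MMPlow and at 1.11 CPM or less in MMPhigh where a UMI was seen.

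Within endothelium the 3 genes followed different patterns. Endothelial-like cells were split into 13 subclusters with the SoxF genes left out, and 4 kinds could be named: arterial-like (391 and 493 cells in MMPlow 1 and 2), led by Pde3a, Sox6, Dkk2 and Gja5; a Wnt signature type; a Tll1 type (1424 and 1675 cells); and a lymphatic-type group led by Prox1, Reln and Nts (137 and 162 cells). None took the venous name, so the Tll1 type, the largest named kind, was used as the counterpart of the arterial-like cells, a choice made after the clusters were seen. The remaining 8 subclusters are given by number and leading gene.

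Sox17 was highest in the arterial-like cells, at 129 and 183 CPM (156 ± 38.7), with no overlap with any other subcluster. The Wnt signature type came next at 85.5 and 95.04 CPM, and overlapped subcluster 6 (Kcne3), at 74.8 and 96.5 CPM. From there to subcluster 0 (61.7 and 63.8 CPM) every neighbour in the order overlapped the next. The Tll1 type was lowest, at 30.7 and 34.7 CPM (32.7 ± 2.86), above the background level of 10.1 to 12.7 CPM. Its range overlapped that of subcluster 11 (Fendrr), at 60.6 and 34.5 CPM on 57 and 46 cells, and lay below those of the others.

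Sox7 was also highest in the arterial-like cells, at 116 and 141 CPM (129 ± 17.3). Subcluster 3, led by Lrrc3b, Abtb2 and the netrin receptor gene Unc5b, followed at 93.0 and 83.0 CPM, below the arterial-like cells and above all others. Subcluster 11 (Fendrr) and the Wnt signature type came next, with means of 53.0 and 52.5 CPM and overlapping ranges. From subcluster 6, at 46.8 and 40.2 CPM, down to subcluster 4, at 25.9 and 36.0 CPM, each of 7 neighbours in the order overlapped the next. The lymphatic-type cells were lowest, at 23.3 and 25.6 CPM (24.5 ± 1.62). By summed UMIs Sox7 thus had its lowest level in the lymphatic-type cells and Sox17 in the Tll1 type. At 5000 UMIs a cell the Tll1 type had the lowest mean share of cells with Sox17 too, 15.5% ± 1.28 (SD, n = 2), whereas for Sox7 subclusters 7 and 12, at 10.05% ± 2.43 and 11.1% ± 0.0578, had lower means than the lymphatic-type cells at 12.3% ± 5.30.

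Sox18 had no arterial maximum. It was highest in subcluster 6, led by Kcne3 and Madcam1, at 34.5 and 37.3 CPM (35.9 ± 1.94), and this range overlapped that of subcluster 3 at 30.1 and 36.5 CPM. The arterial-like cells had 18.0 and 26.0 CPM (22.0 ± 5.67), the lymphatic-type cells 19.7 and 23.1 CPM, and the Tll1 type 23.1 and 21.9 CPM, and these 3 ranges overlapped. The level in the lymphatic-type cells, where Prox1 led the cluster, was therefore no higher than in arterial-like cells. The lowest was subcluster 4 (Taco1), at 10.1 and 12.4 CPM, which overlapped subcluster 11 (Fendrr) and lay above the mesenchymal-like 6.25 and 3.48 CPM. This order is one of summed levels and was not that of shares among the deeper cells: at 5000 UMIs a cell Sox18 was seen in 23.3% and 20.4% of subcluster 3, in 14.8% and 16.0% of subcluster 6, and in 15.4% and 22.2% of subcluster 4, the last on 13 and 27 cells.

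**Figure D2:**
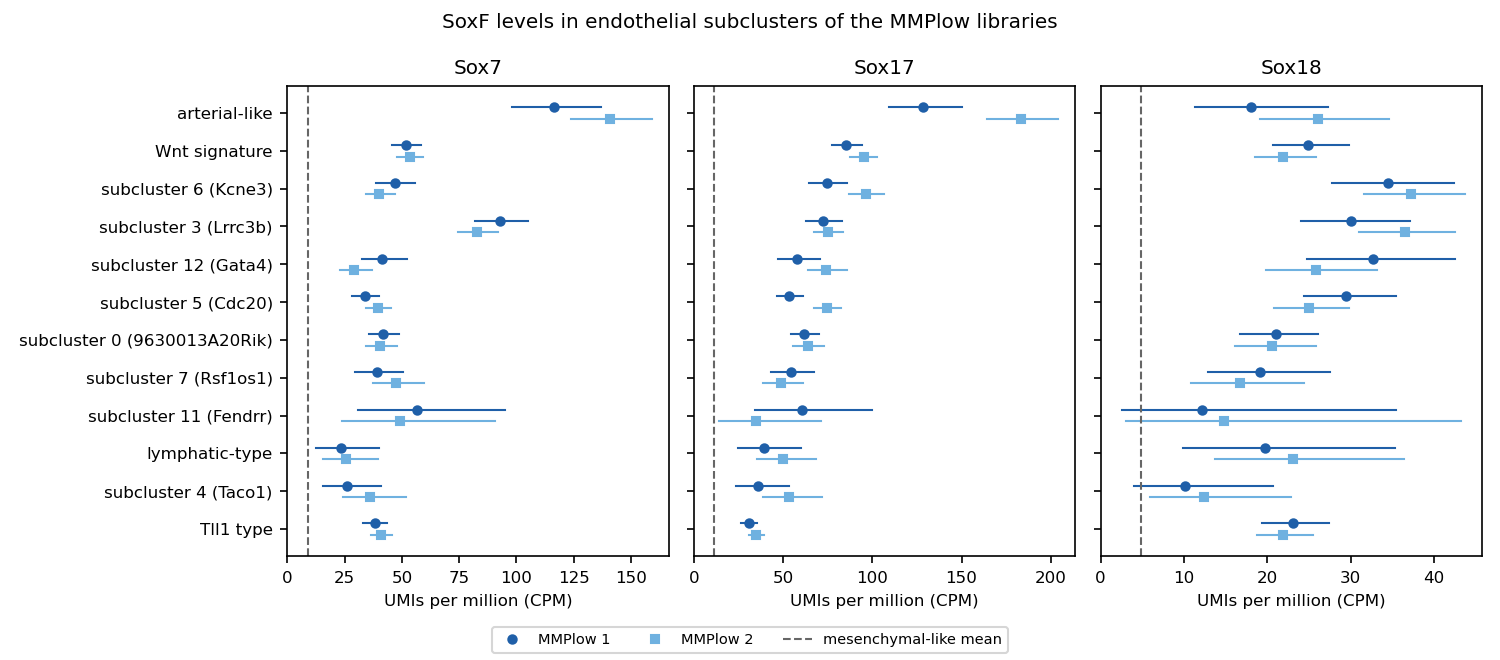
Level of each SoxF gene (CPM) in 12 groups of endothelial subclusters in the MMPlow libraries, with exact 95% Poisson intervals (counting error only); groups are in the order of the Sox17 mean and the dashed line is the mean of mesenchymal-like cells. Sox17 and Sox7 are highest in the arterial-like cells, and Sox18 in subclusters 6 and 3.

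Per cell the transcripts were sparse. With every cell thinned to 2000 UMIs, 8.76% and 9.20% of endothelial-like cells of MMPlow 1 and 2 had a Sox7 UMI, 10.5% and 12.8% a Sox17 UMI, and 4.16% and 4.59% a Sox18 UMI. In mesenchymal-like cells these shares were 1.79% and 1.99% for Sox7, 1.56% and 2.81% for Sox17, and 1.32% and 0.579% for Sox18, all below endothelium. Among arterial-like cells the share with Sox17 was 19.9% and 27.2%, the share with Sox7 17.4% and 21.3%, and the share with Sox18 3.32% and 3.65%. Unthinned, the endothelial-like means were 16.8% for Sox7, 21.6% for Sox17 and 9.52% for Sox18.

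At least 1 SoxF gene was seen in 21.4% and 24.1% of the thinned endothelial-like cells and in 34.3% and 45.0% of the arterial-like cells. Detection of more than 1 gene in a cell was rare at this depth: exactly 2 were seen in 1.85% and 2.32% of endothelial-like cells, and all 3 in 8 and 9 cells. Sox7 and Sox17 met in 90 and 115 cells, 1.17% and 1.32%, where the product of their separate shares gives 0.924% and 1.18%. Cells of different subclusters are pooled in these shares.

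Arterial-like and Tll1-type cells were compared by edgeR's quasi-likelihood test on UMIs summed per group and library, within MMPlow, with the library as a block. Runx1-positive cells were taken out of each subcluster. The fit held all 12 endothelial groups, Runx1-positive endothelium and progenitor-like cells. Its p-values rest on a spread estimated over all of these groups. In this comparison 24.9% of the 13781 genes tested were called at an adjusted p under 0.05 (Benjamini-Hochberg), 13.3% higher in arterial-like cells and 11.6% lower. Since other genes of the same cells defined the subclusters, these p-values are too small for genes that vary with them. On the log2 scale, Sox17 was 2.27 higher in arterial-like cells (SE 0.12; adjusted p = 3.51e-49 by edgeR) and Sox7 1.80 higher (SE 0.12; adjusted p = 1.05e-34), each in both libraries. Sox18 gave -0.06 (SE 0.22, edgeR adjusted p = 0.894), and its sign differed between the libraries taken alone. There it gave -0.45 and 0.16, as log2 CPM ratios with a small count added to each UMI sum. With the SoxF genes allowed among the genes used for clustering, Sox18 turned to 0.62 higher (edgeR adjusted p = 0.0113), although only Sox17 was then among the variable genes of all cells and none of the 3 among those of endothelium. In cells with at least 5000 UMIs it gave 0.52 (edgeR adjusted p = 0.415).

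Genes of the Notch pathway differed between the same subclusters, and some of them had been used to name the arterial-like cells. Of 12 genes, 9 were higher in arterial-like cells and 1 lower, with a median log2 fold of 2.18 beside -0.01 over all genes tested. Hey2 (5.49) and Hey1 (4.69), Notch target repressors, and the ligand gene Dll4 (3.95) led, but these 3, Jag1 and Efnb2 were among the markers that named the arterial-like cells. Hey1 had 80.5 and 121 CPM in arterial-like cells of MMPlow 1 and 2, against 4.60 and 3.64 CPM in the Tll1 type. Of the 7 Notch genes not used for naming, Notch1, Notch4, Jag2 and Nrarp were higher and Dll1 was lower. Notch4, the endothelial receptor, was 1.95 higher (SE 0.12; adjusted p = 5.14e-39 by edgeR).

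Of the 10 listed targets and regulated genes of SoxF factors, 6 were higher in arterial-like cells and 1 was lower, with a median log2 fold of 0.44. Notch1, whose intronic enhancer is a known SoxF target, rose by 1.41 (SE 0.09, edgeR adjusted p = 6.88e-38). Cdh5 (0.43), Robo4 (0.40), Ece1 (0.46) and Gata2 (0.54) were higher by less. Prox1, the lymphatic regulator, was lower by a log2 fold of -2.77. Prox1, Dll4 and Runx1 were naming markers, and of the 7 others, 5 were higher and 0 lower. Runx1 could not differ in this comparison, because cells with a Runx1 UMI had been left out.

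Among 19 tested endothelial transcription factors, 5 were higher and 4 lower, with a median of -0.05, which is not read as a result beside the 13.3% and 11.6% of all genes. Nr2f2, the venous regulator and a naming marker, was lower by -2.65, Tcf4 was higher by 0.78 and the ETS factor gene Elk3 was lower by -0.58. Of the haemogenic list, 3 of 12 genes were higher and 1 lower: Ikzf2 (2.13), Mecom (2.13) and Gata2 were higher, and Hoxa9 was lower (-0.61). That count too is not read as a result about the list, in which Runx1 was held at 0 by the choice of cells. Other Sox genes divided too, with Sox6 (5.63), Sox5 (2.56) and Sox13 (1.53), the SoxD group, higher and Sox12 lower among the 7 tested. Sox6 was a leading gene of the arterial-like subcluster. These genes could enter the clustering, so their folds are not independent of how the groups were made.

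Runx1-positive endothelium was defined as endothelial-like cells with at least 1 Runx1 UMI, 873 in MMPlow 1 and 858 in MMPlow 2. Thinned to 2000 UMIs, 6.99% and 5.54% of endothelial-like cells had a Runx1 UMI, against 10.7% and 7.78% of mesenchymal-like cells and 82.9% and 83.5% of progenitor-like cells. The endothelial share was thus below that of the mesenchymal-like cells of the same library, so a Runx1 UMI did not set these cells apart from a non-endothelial class. Mesenchymal-like cells of MMPhigh had a share of 6.07% and 3.50%. Whether the Runx1 UMIs of either class came from the cells themselves was not tested. Cells with exactly 1 Runx1 UMI made up 781 of the 873 in MMPlow 1 and 780 of the 858 in MMPlow 2. Ptprc, the pan-leukocyte gene, stood at 12.0 and 10.9 CPM in Runx1-negative cells of the 2 libraries. With exactly 2 Runx1 UMIs it stood at 20.4 and 13.2 CPM. In the 26 and 21 cells with 3 or more it stood at 135 and 62.3 CPM, on 21 and 8 UMIs.

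**Figure D3:**
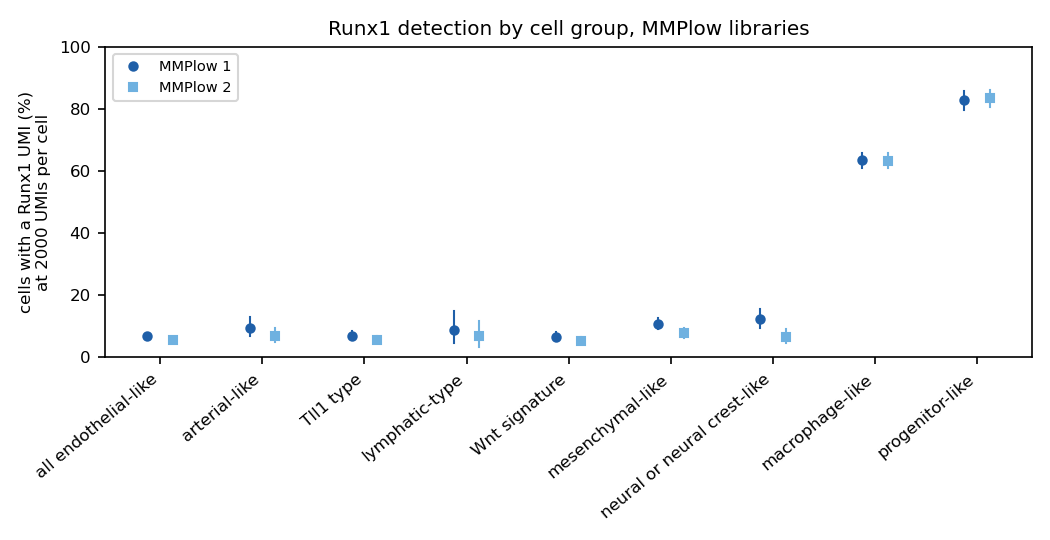
Share of cells with a Runx1 UMI (%) in the MMPlow libraries, every cell thinned to 2000 UMIs, with exact 95% binomial intervals (counting error only). All endothelial-like cells and the named endothelial kinds lie between 5.38% and 9.46%, each below the mesenchymal-like cells of its library, and progenitor-like cells at 82.9% and 83.5%.

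SoxF levels were close in the Runx1-positive and Runx1-negative endothelial-like cells. Sox7 stood at 48.5 and 48.9 CPM with Runx1 and at 49.4 and 51.6 CPM without, Sox17 at 60.8 and 70.7 against 62.0 and 74.8 CPM, and Sox18 at 27.0 and 25.1 against 25.1 and 25.5 CPM. The log2 folds were -0.07 (SE 0.10) for Sox7, -0.07 (SE 0.08) for Sox17 and 0.02 (SE 0.12) for Sox18, and none passed the test (edgeR adjusted p = 0.9998 for each). Across all 13274 genes, 7 were called, 0.0527%, all of them higher, and 533 had an unadjusted p under 0.05; DESeq2 called 8. Of the listed genes only Ikzf2, a naming marker of the progenitors, was called besides Runx1 itself, by 0.70 (SE 0.13, edgeR adjusted p = 0.0255), and without cells that had a myeloid UMI the fold was 0.56 and was not called (edgeR adjusted p = 1.0), on 370 and 330 Runx1-positive cells.

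The split was also made within the arterial-like cells alone, where haemogenic endothelium is known to lie, as an alternative added after the values were seen. The 55 Runx1-positive arterial-like cells of each library had 79.4 and 89.7 CPM of Sox7, below the 123 and 148 CPM of the Runx1-negative ones. That difference of -0.76 (SE 0.27) did not pass the test (edgeR adjusted p = 0.617). Sox17 differed by -0.04, with 101 and 217 against 134 and 179 CPM, and Sox18 by 0.56, with 26.5 and 37.8 against 16.5 and 24.5 CPM. Neither passed the test. The Runx1-positive sums held only 188939 and 211711 UMIs of all genes, so these levels rest on few SoxF UMIs.

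Progenitor-like cells were lower than Runx1-negative endothelium in all 3 genes, in a comparison in which 60.6% of 13274 genes were called, 31.3% lower and 29.3% higher. The log2 folds were -2.92 for Sox17 (SE 0.15; adjusted p = 4.43e-15 by edgeR), -2.77 for Sox7 (SE 0.19; adjusted p = 8.01e-13) and -2.63 for Sox18 (SE 0.23; adjusted p = 1.31e-10). The progenitor-like levels overlapped the background of the mesenchymal-like cells, and the part of that background in these folds was not tested. From MMPlow 1 alone, as a log2 CPM ratio with a small count added to each UMI sum, Sox7 gave -2.04. With cells of at least 5000 UMIs Sox7 gave -3.37, Sox17 -3.82 and Sox18 -3.36. These folds rest on 36 and 124 progenitor-like cells of MMPlow 1 and 2. Thinned to 5000 UMIs, 3 and 8 of these had a UMI of any SoxF gene. Against Runx1-positive endothelium, where 52.9% of genes were called and 27.7% were lower, the folds were -2.85 (SE 0.17) for Sox17, -2.70 (SE 0.21) for Sox7 and -2.65 (SE 0.26) for Sox18.

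Listed genes were compared in the same way, beside the 31.3% of all genes that were lower and the 29.3% that were higher. In progenitor-like cells against Runx1-negative endothelium, 11 of 12 Notch genes were lower (median -2.14, beside -0.01 over all genes), led by Notch4 (-3.77), Dll1 (-2.95) and Jag1 (-2.85). Dll1 rested on few UMIs, with 2.66 against 10.8 CPM in MMPlow 1 and 1.05 against 13.2 CPM in MMPlow 2. Rbpj, the DNA-binding partner of all Notch receptors, was the exception at 0.10. Of 19 endothelial transcription factors, 16 were lower, with Ets1 (-3.07), Bcl6b (-2.87) and Klf4 (-2.83) in front, and Etv6 and Lyl1 were higher. Of the 10 genes of the SoxF target list, 8 were lower, among them Cdh5 (-2.72), Prox1 (-2.72) and Vcam1 (-2.69), and the blood regulators Gata2 (2.96) and Runx1 were higher. Gata2, Runx1, Cdh5, Robo4 and Cldn5 were naming markers, and the 5 others, Dll4, Notch1, Prox1, Vcam1 and Ece1, were all lower. Prox1 differed between the libraries, with 8.52 against 29.4 CPM in MMPlow 1 and 3.49 against 36.4 CPM in MMPlow 2, and Vcam1 rests on 0.533 and 0.698 CPM in progenitor-like cells, 1 and 2 UMIs.

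Of the haemogenic list, 9 of 12 genes were higher in progenitor-like cells, among them Ikzf2 (5.56) and Hlf (4.41), and Mecom was lower (-1.18). Both leading genes, with Runx1, Gfi1, Myb, Gata2 and Mecom, were naming markers, and of the 5 others Gfi1b, Spi1 and Lyl1 were higher. No fold is given for Runx1, since the Runx1-negative cells hold none by definition. Other Sox genes were lower in 4 of 7 cases, led by Sox11 (-1.69) and Sox13 (-1.49), while Sox5 (1.63) and Sox9 were higher.

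Whole MMPhigh libraries held very little SoxF RNA. Over all retained cells Sox7 stood at 28.7 and 27.7 CPM in MMPlow and at 0.899 and 0.280 CPM in MMPhigh, and Sox17 at 35.8 and 40.2 against 1.46 and 0.419 CPM. The log2 folds were -5.84 (SE 0.43, edgeR adjusted p = 0.000466) for Sox7, -5.59 (SE 0.51, edgeR adjusted p = 0.00122) for Sox17 and -5.57 (SE 0.21, edgeR adjusted p = 3.64e-07) for Sox18. In this comparison 53.7% of 20517 genes were called and 26.5% were lower. Endothelial-like cells were 0.386% and 0.439% of the MMPhigh cells, and fewer such cells and less RNA per cell cannot be told apart in a sum over all cells. Without MMPhigh 2 the Sox7 fold was -4.92 and the Sox17 fold -4.66, and without MMPhigh 1 they were -6.63 and -6.48.

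Within endothelial-like cells the direction was the opposite, on few cells. Sox17 stood at 133 and 117 CPM in MMPhigh (33 and 42 UMIs), above the 61.8 and 74.3 CPM of MMPlow. Sox7 stood at 88.8 and 66.6 CPM (22 and 24 UMIs) and Sox18 at 36.3 and 55.5 CPM (9 and 20 UMIs), also with no overlap with MMPlow. The MMPhigh cells had a median of 11759 and 20697 UMIs a cell beside 3152 and 3623 in MMPlow. At an equal 2000 UMIs a cell the shares of cells with a UMI rested on few cells: Sox17 was seen in 1 of 17 and 3 of 15 MMPhigh cells against 10.5% and 12.8% in MMPlow, Sox7 in 3 of 17 and 1 of 15 against 8.76% and 9.20%, and Sox18 in a mean of 3.33% ± 4.71 (SD, n = 2) against 4.37% ± 0.301. At 5000 UMIs there were only 11 and 15 MMPhigh cells. Sox17 then lay above both MMPlow shares, at 36.4% and 53.3% against 26.3% and 29.4%, as it had not at 2000 UMIs. Sox7, in 9.09% and 46.7% against 19.7% and 20.3%, did not, nor did Sox18, in a mean of 14.5% ± 7.71 (SD, n = 2) against 14.97% ± 1.204. The part of depth in the difference was not tested. None passed the test on summed UMIs. The log2 folds were 0.84 for Sox17 (SE 0.22, edgeR adjusted p = 0.0557), 0.58 for Sox7 (SE 0.24, edgeR adjusted p = 0.284) and 0.89 for Sox18 (SE 0.31, edgeR adjusted p = 0.176). In simulated data for this comparison, only 28% of changes of log2 1 were called. Here 1.6% of 15032 genes were called, and Sox17 crossed the threshold under 4 of its 11 alternatives, with adjusted p from 0.00926 to 0.789 over all of them.

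Marker sums of other lists in these 32 cells were recorded beside it, and those of the mesenchymal and progenitor lists are not given here. The summed level of the 13 arterial markers was 480 and 519 CPM in MMPlow and 650 and 1327 CPM in MMPhigh, where Hey2 and Gkn3 were at 0 in both libraries. The 9 venous markers, none at 0, also summed higher, to 1640 and 1706 CPM in MMPlow and 1768 and 2360 CPM in MMPhigh. The 13 endothelial markers, none at 0, summed to 5552 and 5767 CPM against 5235 and 7006 CPM. Arterial-like cells numbered 1 in each MMPhigh library. The 11 macrophage markers summed to 340 and 335 CPM in MMPlow and to 84.8 and 80.5 CPM in MMPhigh, with C1qc and Adgre1 at 0 in both. The 8 megakaryocyte markers summed to 419 and 404 CPM in MMPlow and 32.3 and 36.1 CPM in MMPhigh (Gp1bb, Ppbp and Gp5 at 0 in both). The 10 granulocyte or mast markers summed to 297 and 286 against 16.1 and 30.5 CPM, with 8 of them at 0 in both, Mpo and Elane included. The 14 neural or neural crest markers stood at 269 and 278 CPM in MMPlow and at 182 and 616 CPM in MMPhigh. The 11 erythroid markers summed to 206 and 140 CPM in MMPlow and to 24.2 and 72.2 CPM in MMPhigh. Lymphatic-type cells were 2 of 17 and 1 of 15 endothelial-like cells in MMPhigh, against 137 of 7670 and 162 of 8724 in MMPlow. The part of any of these in the SoxF difference, or in that of Prox1, was not tested. Of the SoxF target list, Prox1 (2.57), Dll4 (1.36) and Cldn5, a tight junction gene (1.07), were higher and 7 did not pass, and neither Dll4 nor Cldn5 passed with only 1 of the MMPlow libraries in the fit. Of the 12 Notch genes only Dll4 was called, and of 19 endothelial transcription factors none was. Sox4 was called higher among 8 other Sox genes, and Spi1, the myeloid regulator, had 0 UMIs in both MMPhigh libraries beside 17.8 and 15.3 CPM in MMPlow.

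**Figure D4:**
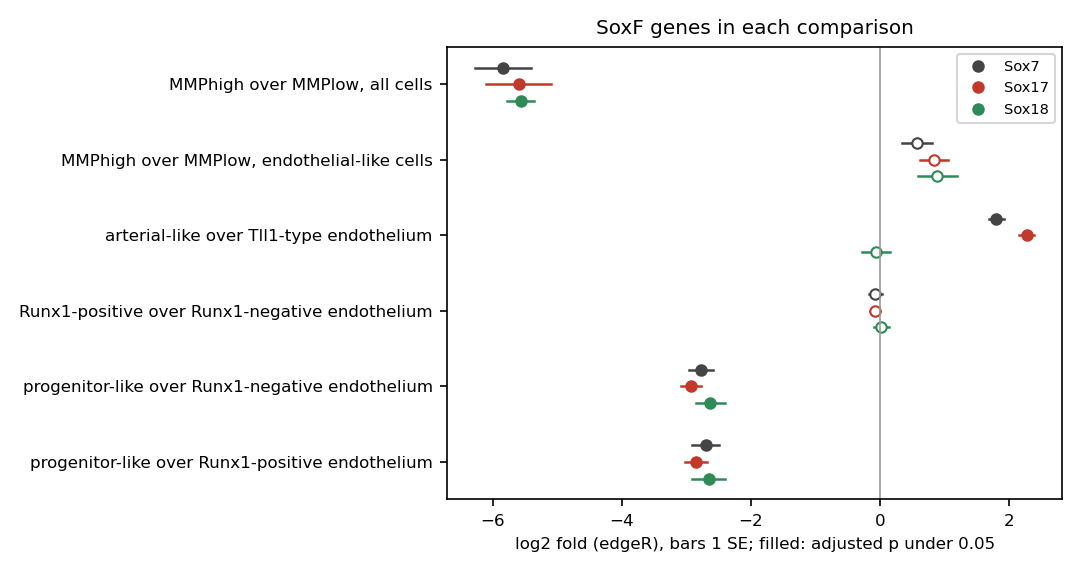
Log2 fold of each SoxF gene in the 6 comparisons tested by edgeR, with bars of 1 SE; filled points have an adjusted p under 0.05. Sox7 and Sox17 are higher in arterial-like cells and Sox18 is not, all 3 lie near 0 in the Runx1 split, and all 3 are lower in progenitor-like cells and over all MMPhigh cells.

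Genes most like each SoxF gene were ranked by Pearson's r of log2(CPM + 10) over 34 cell clusters and endothelial subclusters of MMPlow, among 11834 genes. These r values describe groups from the same 2 libraries, which share their free RNA and depth, and have no test. Sox7 ran closest with Epas1 (0.955), a hypoxia-inducible factor, Notch4 (0.955), Sox17 (0.946), Zfp69 (0.945) and Ccm2l (0.942). Sox17 ran closest with Cdh5 (0.961), the endothelial matrix gene Mmrn2 (0.955), the ephrin ligand gene Efna1 (0.947), Sox7 and Ecscr (0.943). Sox18 ran closest with Crip2 (0.947), Ecscr (0.935), S100a16 (0.935), Plvap (0.924), which builds the diaphragms of fenestrated endothelium, and Exoc3l (0.923).

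The members had lower r with each other inside endothelium than across all cell types. The 34 groups also span the difference between endothelial-like and other cells, which the 12 endothelial groups do not. The part of that range, or of counting noise, in the lower r was not tested. Sox7 and Sox17 had r = 0.946 over the 34 groups and 0.736 over the 12 endothelial ones. Sox17 and Sox18 had 0.888 and 0.423. Sox7 and Sox18 had 0.821 and 0.198, the weakest pair on both scales.

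Promoter sequences from RefSeq (GRCm38.p6, from 250 bases before to 50 after the start) were searched for AACAAT or AACAAA, spellings of the core that Sox proteins bind, on both strands. The 3 SoxF genes had no entry, so for each the best-ranked like gene with one is shown, as the sequences that go with these patterns. Notch4 lies at chr17:34564045-34564344 on the forward strand, Efna1 at chr3:89279596-89279895 on the reverse strand, the first of 2 entries, and Crip2 at chr12:113139986-113140285 on the forward strand, also the first of 2. Each is written 5′ to 3′ on its own strand, with a match in capitals.
Notch4: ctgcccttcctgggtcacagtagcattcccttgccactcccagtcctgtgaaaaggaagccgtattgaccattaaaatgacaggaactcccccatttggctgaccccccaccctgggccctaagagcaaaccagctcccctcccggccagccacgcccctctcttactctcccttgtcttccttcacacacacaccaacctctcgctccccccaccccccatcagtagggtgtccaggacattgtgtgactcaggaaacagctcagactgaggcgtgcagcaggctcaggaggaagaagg
Efna1: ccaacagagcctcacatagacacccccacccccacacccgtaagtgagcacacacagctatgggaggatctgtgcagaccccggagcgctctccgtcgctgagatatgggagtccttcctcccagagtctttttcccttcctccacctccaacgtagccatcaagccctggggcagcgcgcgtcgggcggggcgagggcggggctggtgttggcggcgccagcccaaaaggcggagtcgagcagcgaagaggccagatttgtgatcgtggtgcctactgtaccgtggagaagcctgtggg
Crip2: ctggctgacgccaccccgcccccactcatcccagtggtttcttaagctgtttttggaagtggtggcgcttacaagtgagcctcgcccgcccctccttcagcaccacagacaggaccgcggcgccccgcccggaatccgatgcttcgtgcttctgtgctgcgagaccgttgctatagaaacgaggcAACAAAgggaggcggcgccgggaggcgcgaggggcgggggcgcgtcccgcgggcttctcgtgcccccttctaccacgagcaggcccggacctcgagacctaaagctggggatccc
Only the Crip2 window held a match, 65 bases before the start and on the gene's strand. The second Efna1 and Crip2 entries held none. Of all 32851 promoters of this length 27.7% held a match, and of the 14 promoters of 8 genes of the SoxF target list 7.14% (1 promoter) did. A match is a spelling in the window and no binding was measured.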

How the data were processed

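Droplet single-cell libraries of CD31+ AGM cells (2 MMPlow, 2 MMPhigh) were read as the matrices of raw UMI counts that the authors deposited, each with its gene and barcode lists. The file headers name Cell Ranger 7.0.1, whereas the submitters' processing notes name Cell Ranger 2.1.1 and mm10, and the counting options are not given in the sources used here. Barcodes with at least 2000 UMIs, at least 1000 genes and under 25% mitochondrial UMIs were kept, and doublets called by Scrublet were removed. Scrublet marked 2 barcodes in MMPlow 1 and 0 in MMPhigh 1, so it did not work there, and 996 and 68 in the other libraries.

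Counts scaled to 10000 a cell were clustered on 2000 variable genes without Sox7, Sox17 and Sox18 (scanpy 1.11.5, 30 components, 15 neighbours, Leiden resolution 1.0), and endothelial-like cells were clustered again. A cluster took a name where a marker list had a mean log2 fold of at least 0.5 and stood 0.25 above the next. It also needed at least 3 markers with 1 among the 10 leading genes, or 7 markers with none leading. A cluster stayed unnamed where another list had more of its leading genes, as in clusters 12 and 24. For the endothelial list, markers of the endothelial subcluster lists, the haemogenic list aside, also counted as its leading genes. Cluster 8, led by Gja5, Vegfc and Gja4, had 5 leading genes counted in this way and took the endothelial name. The same held where its cells had few UMIs and no marker led. This rule was adjusted after the clusters were seen, so that a group might be named otherwise elsewhere. The SoxF genes, the 5 gene lists and the markers were chosen with earlier results of these data known.

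UMIs were summed per cell group and library and tested with edgeR 4.0.16 in R 4.3.3 (TMM factors, filterByExpr, robust quasi-likelihood F-test), with Benjamini-Hochberg adjustment over all genes tested. Tests across MMP groups used 2 against 2 libraries with no block, and tests among cell groups used the MMPlow pair with the library as a block. All cell groups of a fit shared the estimate of the spread. Genes named are the SoxF genes, at most 3 called genes per list with the largest folds, Pecam1, Cdh5 and Runx1, and the 5 genes most like each SoxF gene; other names, such as Notch4, Vcam1, Rbpj, Gata2 and those given only by direction, were chosen after their values were seen. A log2 fold is that of the fitted counts, and CPM is UMIs per 1000000 of the summed group. CPM at 3′ ends were not compared between genes as absolute levels. Intervals cover counting error only, at 95%.

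Alternatives were DESeq2 1.42.0 and its size factors, no count filter, leaving out each library, the block, at least 5000 UMIs per cell, the top 6% of doublet scores removed, clustering with the SoxF genes, at least 2 Runx1 UMIs, thinned cells, and removal of endothelial-like cells with a myeloid UMI. The edgeR steps were tested on simulated data with known changes and the same spread for all genes. For MMPhigh over MMPlow in endothelial-like cells, 28% of changes of log2 1 and 65% of log2 2 were called. In the other comparisons these shares were 73% to 92% and 84% to 99%.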

Additional observations from a re-analysis of the deposited data

Results flagged for a closer look

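SoxF UMIs were also present in barcodes that the filters had left out, which enter no comparison. In MMPlow 1, 43228 such barcodes held 24.7 CPM of Sox7, 28.2 CPM of Sox17 and 13.8 CPM of Sox18. In the 4136 left-out barcodes of MMPlow 2 the levels were 27.0, 31.8 and 12.3 CPM, in the same order. All 6 lie between those of the mesenchymal-like and the endothelial-like cells of the same library. In MMPhigh 1, 9536 left-out barcodes held 1.32 CPM of Sox7 (14 UMIs), 1.13 CPM of Sox17 (12 UMIs) and 0.564 CPM of Sox18 (6 UMIs). Of all Sox17 UMIs of MMPlow 1, 38.4% lay in left-out barcodes, against 5.06% in MMPlow 2. Of the UMIs of all genes, these barcodes held 53107244 of 120168395 in MMPlow 1 and 6409185 of 102083810 in MMPlow 2. The contrast between the libraries is therefore not read as a result about Sox17. The filters on UMIs, genes and mitochondrial share were applied together and were not separated here.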

How the results depend on the processing

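With 2 libraries a group, p-values rest on few residual degrees of freedom, and 17 and 15 endothelial-like cells limit the MMPhigh side. Sox17 in endothelial-like MMPhigh over MMPlow cells passed with DESeq2 size factors (0.90, adjusted p = 0.0365), no filter (0.81, 0.00926), DESeq2's Wald test (0.90, 0.0140) and top doublet scores removed (0.84, 0.0449); the cause was not tested. Sox18 in arterial-like over Tll1-type cells turned to 0.62 when the SoxF genes could enter the clustering, as only Sox17 did, against -0.06; the cause was not tested. No other SoxF fold changed its side of the threshold. Genes called in endothelial-like MMPhigh over MMPlow were 240, and 613 with no filter, 401 with DESeq2, and 63 (without MMPlow 1) to 784 (without MMPhigh 1) with a library left out. For the Runx1 split they were 7, and 16 with no filter, 1 with no replicate block, 38 at 5000 UMIs or more, 2 with top doublet scores removed, 136 with at least 2 Runx1 UMIs and 4 without cells with a myeloid UMI. At 5000 UMIs or more, with fewer cells, they were 1395 in place of 3436 for arterial-like over Tll1-type cells, and 4980 in place of 8047 and 4403 in place of 7025 for progenitor-like over Runx1-negative and Runx1-positive endothelium.

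Values from MMPlow 1 and from MMPlow 2 alone are given in that order. They are log2 CPM ratios with a small count added to each UMI sum, and have no test. Arterial-like over Tll1-type gave 1.70 and 1.83 for Sox7 and 2.09 and 2.35 for Sox17. The Runx1 split gave -0.022 and -0.074 for Sox7 and -0.025 and -0.078 for Sox17. Progenitor-like over Runx1-negative endothelium gave -2.04 and -3.16 for Sox7, -2.50 and -2.96 for Sox17 and -2.31 and -2.55 for Sox18. Over Runx1-positive endothelium the values were -2.02 and -3.09, -2.48 and -2.88, and -2.42 and -2.53. Shares of cells with a UMI moved with depth: unthinned and at 5000 UMIs they were 16.8% and 20.02% for Sox7, 21.6% and 27.9% for Sox17 and 9.52% and 14.97% for Sox18 in endothelial-like cells, and 29.6% and 41.4%, 36.2% and 56.3%, and 7.02% and 15.8% in arterial-like cells.

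Libraries share the replicate numbers 1 and 2, and same-numbered libraries deviated together with r = 0.147 over 18328 genes, but the labels do not say that a number marks a shared day or embryo. With the replicate block, MMPhigh over MMPlow gave -5.82 (Sox7), -5.60 (Sox17, adjusted p = 0.0222) and -5.55 (Sox18) over all cells, and 0.59, 0.85 and 0.86 in endothelial-like cells, where 323 genes were called; no SoxF call changed. With no replicate block, arterial-like over Tll1-type cells gave 1.80, 2.27 and -0.06, with 2555 genes called. MMPhigh over MMPlow in progenitor-like cells was not run, because MMPhigh 1 held 4 such cells, and arterial-like over venous-like was replaced, because no subcluster took the venous name.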

Other observations

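The unnamed clusters 12, 15 and 20 held SoxF levels between those of endothelium and of the background. Cluster 12 was led by Gm2245, Insyn2b and the mast cell gene Cpa3, which was also a leading gene of the progenitor-like cells. It had means of 29.7 CPM of Sox7, 42.3 CPM of Sox17 and 16.3 CPM of Sox18 over the MMPlow libraries. Its best-scoring list was endothelial (mean log2 fold 1.06, 11 markers), with haematopoietic progenitor second (0.563). Its cells numbered 601 in MMPlow 1 and 186 in MMPlow 2, with a median of 4776 UMIs. Cluster 15, led by Ulk4 and the neutrophil genes S100a9 and Ngp, had 28.0, 48.2 and 18.7 CPM. Its best-scoring list was also endothelial (0.824), with 0 markers, and it held 122 and 722 cells of MMPlow 1 and 2. Cluster 20 had 23.6, 39.4 and 18.2 CPM. Cdh5 stood at 272, 246 and 216 CPM in clusters 12, 15 and 20, between the 441 CPM of endothelial-like and the 79.4 CPM of mesenchymal-like cells.

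Endothelial-like cells with 3 or more Runx1 UMIs numbered 26 in MMPlow 1 and 21 in MMPlow 2. Their Sox17 level was 38.6 CPM in the first (6 UMIs) and 101 CPM in the second (13 UMIs), so the libraries lay on opposite sides of the endothelial-like mean. Ptprc stood at 135 and 62.3 CPM in them.

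Within the 12 endothelial groups alone, the genes closest to the members differed from those across all cells. They were Rnf125 for Sox7 (r = 0.950), Ilk for Sox17 (0.914) and Mmgt2 for Sox18 (0.935), among 8751 genes; with so few groups, values of this size are a description only.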
